A study of Mus musculus with 6 samples.

Results

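The TGF-β module of TuBo cells was followed through 10 genes, the ligand genes Tgfb1, Tgfb2 and Tgfb3, the receptor genes Tgfbr1, Tgfbr2 and Tgfbr3, and the Smad genes Smad2, Smad3, Smad4 and Smad7. Their rows were found by gene symbol, the choice of genes having been made with earlier results of these data known, and each symbol matched 1 of the 21960 genes in the deposited counts. TuBo cells were derived from a tumor that arose in the mammary gland of a Balb-NeuT mouse, which carries the activated rat neu (HER2) oncogene under the MMTV promoter. RNA was sequenced from 3 mock libraries, labelled wt, and 3 p140Cap libraries, labelled as overexpressing p140Cap, and both kinds of cell share the Balb-NeuT background. The sample labels call them cell lines and their treatment protocol and the paper name TuBo cells, whereas the design text of the series speaks of mice, and they are read here as TuBo cells. The p140Cap cells carried p140Cap cDNA from the retroviral vector pBabe-puro, were selected with puromycin, and were pooled from positive clones grown from single cells, so effects of p140Cap cannot be told apart from those of selection and cloning. The labels do not say what vector the mock cells received, nor whether libraries of a group came from separate cultures, so p-values measure the spread between libraries, which may be technical.

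TGF-β ligands are secreted as latent dimers that stay bound to their propeptides until they are released, for instance by integrins or thrombospondin. Active ligand binds the type II receptor TGFBR2, which recruits and phosphorylates the type I receptor TGFBR1, while the co-receptor TGFBR3 (betaglycan) presents ligand, TGF-β2 in particular. TGFBR1 phosphorylates SMAD2 and SMAD3, which enter the nucleus with SMAD4, and SMAD7 is an inhibitor that is itself induced by the pathway. In mammary epithelium the pathway is known for restraining proliferation and, in advanced tumors, for driving epithelial-mesenchymal transition.

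Total reads on genes lay between 33058719 and 75506562 in the mock libraries and between 13770385 and 15364850 in the p140Cap libraries, so rare transcripts were counted less precisely in p140Cap cells. Srcin1, which encodes p140Cap, was at 15.0 ± 1.96 CPM (reads scaled by library size to a total of 1000000) in the 3 mock libraries and 2343 ± 153 CPM in the 3 p140Cap libraries (SD), as the labels say. The 6 epithelial markers were all detected, with a summed level of 5992 to 6433 CPM in mock and 6633 to 6798 CPM in p140Cap cells. By gene, 3 of these were called higher and 1 lower, Krt7, a keratin gene, at 803 against 447 CPM (log2 fold change -0.84). That is 66.7% called, against 71.1% of all genes tested. Of 7 fibroblast markers, Col1a2, Col3a1, Dcn and Lum had no read in any library, and the summed level was 9.97 to 10.5 CPM in mock and 11.3 to 14.1 CPM in p140Cap cells. Ptprc, Adgre1 and Cd3e of the 6 leukocyte markers were also at 0 reads in every library, and that list summed to 2.06 to 2.34 CPM in mock and 3.23 to 4.09 CPM in p140Cap cells. Cd68, a lysosomal gene and the sole leukocyte marker tested, was called higher, at 2.14 against 3.76 CPM (log2 fold change 0.83, adjusted p = 1.19e-04, edgeR). The 4 endothelial markers summed to less than 1 CPM in each library, from 0.21 to 0.478 CPM in mock and from 0.477 to 0.734 CPM in p140Cap cells, with Kdr at 0 reads and Pecam1 called higher, at 0.271 against 0.645 CPM. Pecam1 passed the filter on low counts through the p140Cap libraries alone, so a difference was a condition of its being tested.

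p140Cap cells differed from mock cells in the make-up of this module rather than in one direction. Tgfb1 and Tgfbr1 were lower, Tgfb2, Tgfb3, Tgfbr2 and Tgfbr3 were higher, Smad2 was lower, Smad3 was higher, and Smad4 and Smad7 did not pass the test. In all, 8 of the 10 genes were called, that is, had an adjusted p (edgeR, all genes) under 0.05, where 71.1% of the 11800 genes tested were called. Of the members, 5 were higher (35.2% of all genes tested) and 3 were lower (35.9% of all genes tested). With a change of at least 0.5 log2 units also required, 4 members were called, against 30.8% of all genes. The groups did not overlap in CPM for 9 members, against 73.4% of all genes. The share of members called was thus near that of all genes. The median log2 fold change was 0.10 over the members and 0.00 over all genes tested. All 10 members entered the test, Tgfb1 only through its mock reads, since the filter on low counts asks for reads in 1 group.

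**Figure D1:**
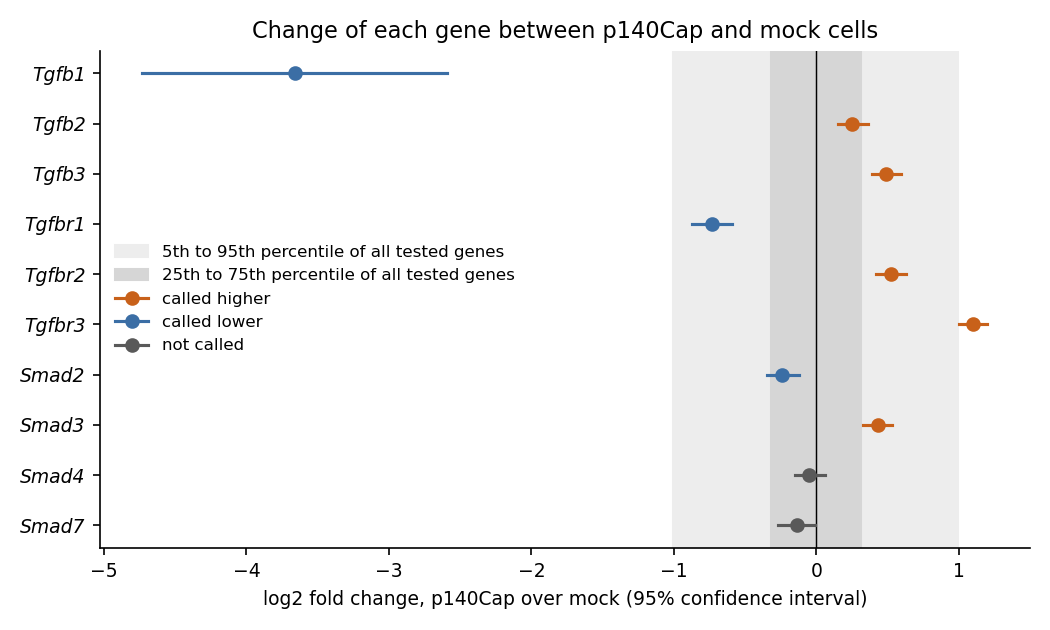
Log2 fold change of each gene between p140Cap and mock cells (x axis) with its 95% confidence interval from edgeR, colored by call, over grey bands that hold 50% and 90% of all 11800 tested genes. Tgfb1 at -3.66 and Tgfbr3 at 1.10 lie outside the wider band, which runs from -1.01 to 0.99, and the intervals of Smad4 and Smad7 are the closest to 0.

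Of the ligand genes, Tgfb1 (ENSMUSG00000002603; chr7:25687002-25705077, plus strand, GRCm38.p6) encodes the most widely expressed isoform in most tissues, yet it was the rarest member in these cells. Mock libraries held 82, 59 and 38 reads of it (1.07, 1.48 and 1.14 CPM), and p140Cap libraries held 2, 0 and 2 reads. Each mock library was above each p140Cap library, and the p140Cap library at 0 reads allows a level of up to 0.204 CPM (3 reads). In bulk RNA, fewer expressing cells and less RNA per cell cannot be told apart. The fitted log2 fold change was -3.66 (SE 0.50, 95% confidence interval -4.73 to -2.59, adjusted p = 6.16e-06, edgeR). Tgfb1 passed the filter on low counts through the mock libraries alone, so a difference was a condition of its being tested, and the fitted size depends on the prior count. The 179 reads of mock and 4 reads of p140Cap cells put the level in mock cells at 13 times that in p140Cap cells, with exact 95% bounds of 4.99 and 48.2 (counting error only), so the size of the decrease is known far less well than its direction. The fitted value was -3.09 without p140Cap replicate 2, the library at 0 reads, and lay between -4.11 and -3.09 over all libraries left out in turn.

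Tgfb3 (ENSMUSG00000021253; chr12:86056743-86079041, minus strand) was the ligand transcript that these cells made most of. Its level was 215, 215 and 221 CPM in mock cells and 298, 322 and 295 CPM in p140Cap cells. All p140Cap libraries were above all mock libraries (log2 fold change 0.49, SE 0.05, adjusted p = 1.19e-07, edgeR). Tgfb2 (ENSMUSG00000039239; chr1:186622787-186709697, minus strand), whose product binds TGFBR2 weakly without TGFBR3, was at 49.3, 50.5 and 48.1 CPM in mock cells and 58.8, 57.0 and 60.7 CPM in p140Cap cells. The groups did not overlap here either (log2 fold change 0.25, SE 0.05, adjusted p = 2.99e-04, edgeR), and 58% of the genes tested changed by more. Annotated genes on the other strand overlap Tgfb2 and Tgfb3, Ttll5 among them for Tgfb3, and none overlaps Tgfb1.

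Per length of transcript, Tgfb3 made up 83.7 ± 0.547% of the summed ligand level in mock and 86.1 ± 0.923% in p140Cap cells, and Tgfb2 15.8 ± 0.484% and 13.9 ± 0.90% (SD, n = 3 libraries each). Tgfb1 was 0.427%, 0.588% and 0.447% of it in the mock libraries and 0.0389%, 0% and 0.0435% in the p140Cap libraries. The summed level of the 3 ligand genes, in CPM per kilobase of exon (RPKM), was 49.4, 49.6 and 50.3 in mock and 66.6, 70.8 and 66.4 in p140Cap cells. The sum therefore was 1.37 times as high in p140Cap cells although Tgfb1 was lower, since Tgfb1 carried less than 1% of it in every library. Lengths here are all exonic bases (5083 for Tgfb1). With median coding transcripts (1989 bases for Tgfb1) the Tgfb1 share would be larger. For the sum and for each share, the groups did not overlap, and an exact two-sided permutation test gave p = 0.1, the smallest that 3 against 3 libraries allow.

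The promoter windows of genes that moved in opposite directions are printed for comparison, Tgfb1 (lower) beside Tgfb2 (higher) and Tgfbr1 (lower) beside Tgfbr2 (higher). They are RefSeq sequences of GRCm38.p6, 250 bases before to 50 bases after an annotated start, 5′ to 3′ on the strand of the gene. Of the 10 members, 5 had a window in the table used, the fifth being Smad3. Capitals mark matches on either strand to any of 6 motifs. The core promoter motif TATAAA occurred in 13.6% of all 32851 windows and the GC box motif, spelled GGGCGG, in 35.7%. The AP-1 site TGACTCA was found in 5.2% and the cAMP response element TGACGTCA in 1.79%. Of the motifs that Smad proteins bind, the palindrome GTCTAGAC was found in 0.213% and the shorter motif CAGACA in 21%. No motif lies within another. Tgfbr1 has a further window, at a later start, that is not shown.
Tgfb1, chr7:25686752-25687051, plus strand: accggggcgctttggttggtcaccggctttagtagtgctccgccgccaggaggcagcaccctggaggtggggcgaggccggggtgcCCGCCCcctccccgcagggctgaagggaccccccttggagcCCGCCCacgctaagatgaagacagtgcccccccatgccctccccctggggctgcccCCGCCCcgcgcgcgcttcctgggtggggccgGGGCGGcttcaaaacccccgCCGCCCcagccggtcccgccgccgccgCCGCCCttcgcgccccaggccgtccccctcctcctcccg
Tgfb2, chr1:186705940-186706239, minus strand: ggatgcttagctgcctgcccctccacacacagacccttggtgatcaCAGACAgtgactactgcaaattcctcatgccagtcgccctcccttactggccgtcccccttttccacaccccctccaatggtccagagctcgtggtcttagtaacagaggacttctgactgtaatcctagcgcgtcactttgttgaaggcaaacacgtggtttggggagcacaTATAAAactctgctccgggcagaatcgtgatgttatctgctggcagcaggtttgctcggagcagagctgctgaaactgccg
Tgfbr1, chr4:47352972-47353271, plus strand: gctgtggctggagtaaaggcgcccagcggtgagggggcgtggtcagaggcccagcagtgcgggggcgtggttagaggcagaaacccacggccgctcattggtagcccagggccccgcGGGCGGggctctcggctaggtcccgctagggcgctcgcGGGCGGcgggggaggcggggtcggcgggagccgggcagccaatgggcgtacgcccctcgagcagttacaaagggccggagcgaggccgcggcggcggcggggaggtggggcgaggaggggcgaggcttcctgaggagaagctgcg
Tgfbr2, chr9:116175314-116175613, minus strand: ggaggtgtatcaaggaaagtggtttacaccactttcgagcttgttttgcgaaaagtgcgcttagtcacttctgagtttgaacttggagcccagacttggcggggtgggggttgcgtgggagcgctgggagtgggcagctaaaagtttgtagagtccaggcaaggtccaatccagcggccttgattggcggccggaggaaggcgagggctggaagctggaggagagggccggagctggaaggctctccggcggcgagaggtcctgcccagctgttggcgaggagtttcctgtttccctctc
The Tgfb1 window held 6 GC box matches and no other match, and 77% of its bases were G or C, while the median over all windows was 52.7%. The Tgfb2 window had 54.3% G or C, a TATAAA match 31 bases before the start, 1 CAGACA match and no GC box match. The Tgfbr1 window had 74.7% G or C and 2 GC box matches, and the Tgfbr2 window had 59% G or C and no match to the 6 motifs. The Smad3 window, not shown, held 2 GC box matches and no other match. Smad3 was higher in p140Cap cells, so GC boxes were not confined to windows of lower genes. These are descriptions of letters in a window, and binding was not measured.

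The receptor genes changed more than the Smads, and not in one direction. Tgfbr1 (ENSMUSG00000007613; chr4:47353222-47414926, plus strand), the type I receptor kinase also called ALK5, was at 75.7, 75.3 and 66.0 CPM in mock cells and 47.3, 40.3 and 43.4 CPM in p140Cap cells. The lowest mock library was well above the highest p140Cap library. The decrease of 0.73 log2 units (log2 fold change -0.73, SE 0.07, adjusted p = 6.60e-08, edgeR) was between -0.80 and -0.68 with each library left out in turn.

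Tgfbr2 (ENSMUSG00000032440; chr9:116087695-116175363, minus strand), the ligand-binding type II receptor kinase, was at 124, 118 and 120 CPM in mock and 173, 183 and 164 CPM in p140Cap cells. Each p140Cap library exceeded each mock library (log2 fold change 0.52, SE 0.05, adjusted p = 8.90e-08, edgeR). Tgfbr3 (ENSMUSG00000029287; chr5:107106567-107289629, minus strand), the betaglycan co-receptor, was at 52.9, 55.3 and 51.6 CPM in mock and 117, 115 and 111 CPM in p140Cap cells. This was the largest increase among the members, a log2 fold change of 1.10 (SE 0.05, 95% confidence interval 1.00 to 1.2, adjusted p = 1.21e-11, edgeR) or 2.14-fold, and 8.33% of the genes tested changed by more. Tgfbr3 stood at position 118 of 11800 by p. The annotation used (GENCODE, GRCm39) has 3 further gene models that overlap Tgfbr3 on its own strand and 2 on the other. Models on the other strand also overlap Tgfbr1, Tgfbr2 and Smad4. Reads of these genes are uncertain to that extent, since no source used here gives the strand setting of the counting.

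Among the 3 receptor transcripts, the share of Tgfbr1 per length was 34.4%, 34.6% and 32.0% in the mock libraries and 16.3%, 13.9% and 15.8% in the p140Cap libraries. The share of Tgfbr3 was 24 ± 0.676% in mock and 38.8 ± 0.469% in p140Cap cells, and that of Tgfbr2 was 42.3 ± 1.48% and 45.9 ± 1.65% (SD, 3 libraries per group). These shares are taken within a library and do not depend on how libraries were scaled. The ratio of Tgfbr2 to Tgfbr1 in RPKM, computed after the values were seen, was 1.23, 1.18 and 1.37 in mock and 2.76, 3.43 and 2.85 in p140Cap cells, and that of Tgfbr3 to Tgfbr1 was 0.715 ± 0.0401 and 2.54 ± 0.188. In mock cells Tgfbr1 was thus more abundant per length than Tgfbr3, and in p140Cap cells less abundant, in every library. The summed receptor level was 32.4 ± 1.12 RPKM in mock and 43 ± 1.34 RPKM in p140Cap cells. For each share, ratio and sum of the receptors, the groups did not overlap and the exact permutation test gave its smallest possible p of 0.1.

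**Figure D2:**
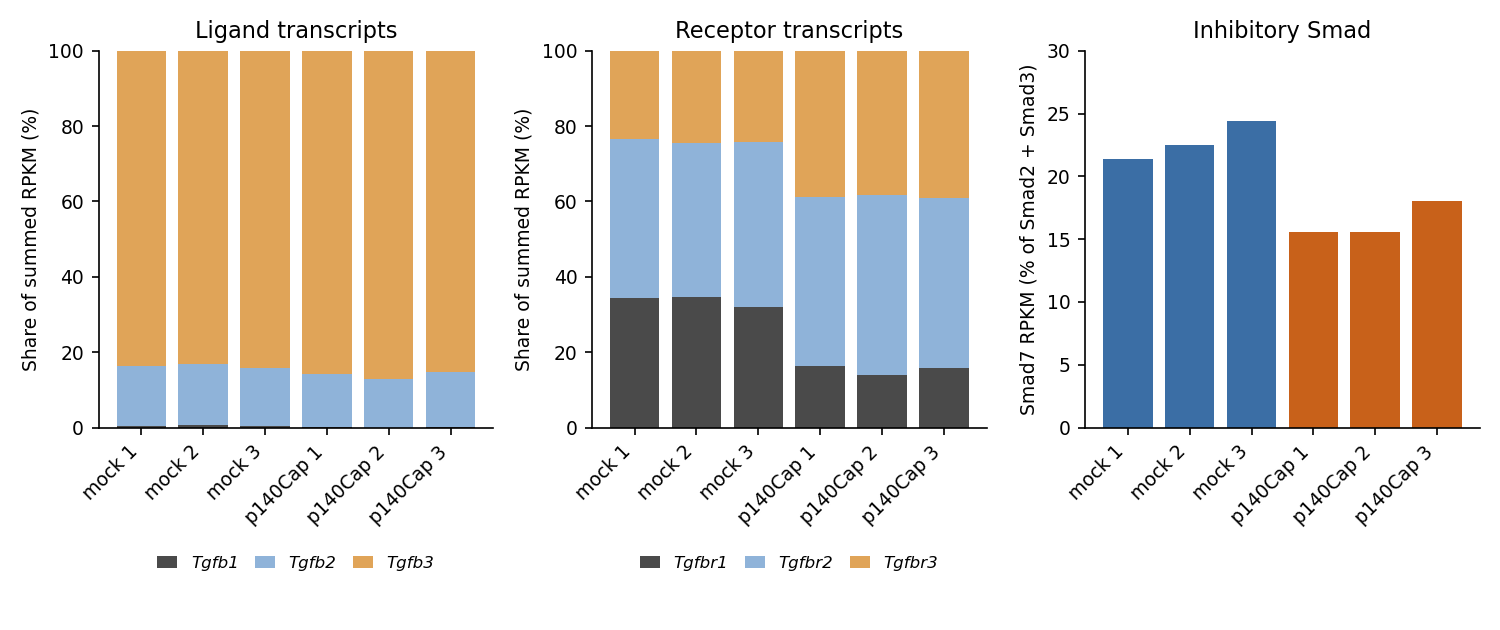
Share of each ligand gene (left) and receptor gene (middle) in the summed RPKM of its class, and Smad7 RPKM as a percentage of Smad2 plus Smad3 RPKM (right), 1 bar per library. Tgfb3 fills over 80% of each ligand bar, and Tgfbr1 takes 32.0% or more of each mock receptor bar and 16.3% or less of each p140Cap bar.

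The receptor-activated Smads moved apart. Smad3 (ENSMUSG00000032402; chr9:63646766-63757994, minus strand), which binds DNA directly, was at 155, 148 and 146 CPM in mock and 202, 210 and 194 CPM in p140Cap cells. The groups did not overlap (log2 fold change 0.43, SE 0.05, adjusted p = 5.90e-07, edgeR). Smad2 (ENSMUSG00000024563; chr18:76241090-76311748, plus strand), whose main isoform needs partners to bind DNA, was at 65.3, 62.8 and 61.6 CPM in mock and 56.9, 53.1 and 50.9 CPM in p140Cap cells. Here all p140Cap libraries were below all mock libraries, at a difference of -0.24 on the log2 scale (SE 0.05, adjusted p = 9.99e-04, edgeR), a smaller change than in 60.6% of the genes tested. The ratio of Smad3 to Smad2 in RPKM, computed after these values were seen, was 4.61, 4.58 and 4.59 in mock and 6.89, 7.67 and 7.39 in p140Cap cells (exact permutation p = 0.1, the smallest possible).

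Smad4 (ENSMUSG00000024515; chr18:73634790-73703791, minus strand), the common partner of the receptor-activated Smads, was at 86.0, 86.7 and 84.8 CPM in mock and 83.2, 87.1 and 79.0 CPM in p140Cap cells. The groups overlapped, with the highest value in a p140Cap library. Its log2 fold change was -0.05 with a 95% confidence interval of -0.15 to 0.06 (adjusted p = 0.412, edgeR), so a change beyond those bounds was not seen at this depth. Smad7 (ENSMUSG00000025880; chr18:75367365-75395935, plus strand), the inhibitory Smad, was at 33.1, 33.3 and 35.5 CPM in mock and 29.7, 30.4 and 32.5 CPM in p140Cap cells. Every p140Cap library lay below every mock library, but the log2 fold change of -0.14 (95% confidence interval -0.27 to -0.01) missed the threshold after adjustment (adjusted p = 0.0548, edgeR). Smad7 was called lower without p140Cap replicate 3, at -0.18 log2 units (adjusted p = 0.0371, edgeR), and its call also depended on the filter on low counts, with an adjusted p between 0.0256 and 0.268 over the 14 alternatives.

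Relative to Smad2 plus Smad3, per length, Smad7 was at 21.4%, 22.5% and 24.4% in mock and 15.6%, 15.6% and 18% in p140Cap cells. The groups did not overlap, and the difference of means was -6.34 percentage points (exact permutation p = 0.1, the smallest possible). Smad2, Smad4 and Smad7 all lie on chromosome 18, whose 315 tested genes had a median log2 fold change of 0.00. The summed level of Smad2, Smad3 and Smad4 was 43.3 ± 1.07 RPKM in mock and 51.0 ± 2.06 RPKM in p140Cap cells (SD, 3 libraries per group, exact permutation p = 0.1).

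Set side by side per length, the members spanned a wide range of levels. In mock cells the order in mean RPKM ran from Tgfb3 at 41.6 ± 0.611 through Smad3 at 25.8 ± 0.838, Tgfbr2 at 13.7 ± 0.326, Smad4 at 11.8 ± 0.137, Tgfbr1 at 10.9 ± 0.83, Tgfb2 at 7.88 ± 0.186, Tgfbr3 at 7.78 ± 0.277, Smad7 at 7.15 ± 0.284 and Smad2 at 5.62 ± 0.17 to Tgfb1 at 0.242 ± 0.0434 (SD, n = 3 libraries). Only Tgfb2 and Tgfbr3 were neighbors whose mock libraries overlapped. In p140Cap cells Tgfb3, Smad3 and Tgfbr2 kept the first 3 positions, at 58.5 ± 2.76, 34.8 ± 1.39 and 19.7 ± 1.11 RPKM. Tgfbr3 followed at 16.7 ± 0.398 RPKM, up from position 7 to 4, and Tgfbr1 went down from position 5 to 7, at 6.59 ± 0.535 RPKM. Its libraries overlapped those of Smad7 at 6.50 ± 0.307 RPKM. Smad2 and Tgfb1 stayed last in both groups. Levels per length depend on which transcripts are assumed, and with the median coding transcript in place of all exonic bases 5 of the 10 members kept their position in each group. Those that moved include Tgfbr1 and Tgfbr2 in both groups and Tgfbr3 in p140Cap cells, so Tgfbr2 does not hold position 3 there.

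**Figure D3:**
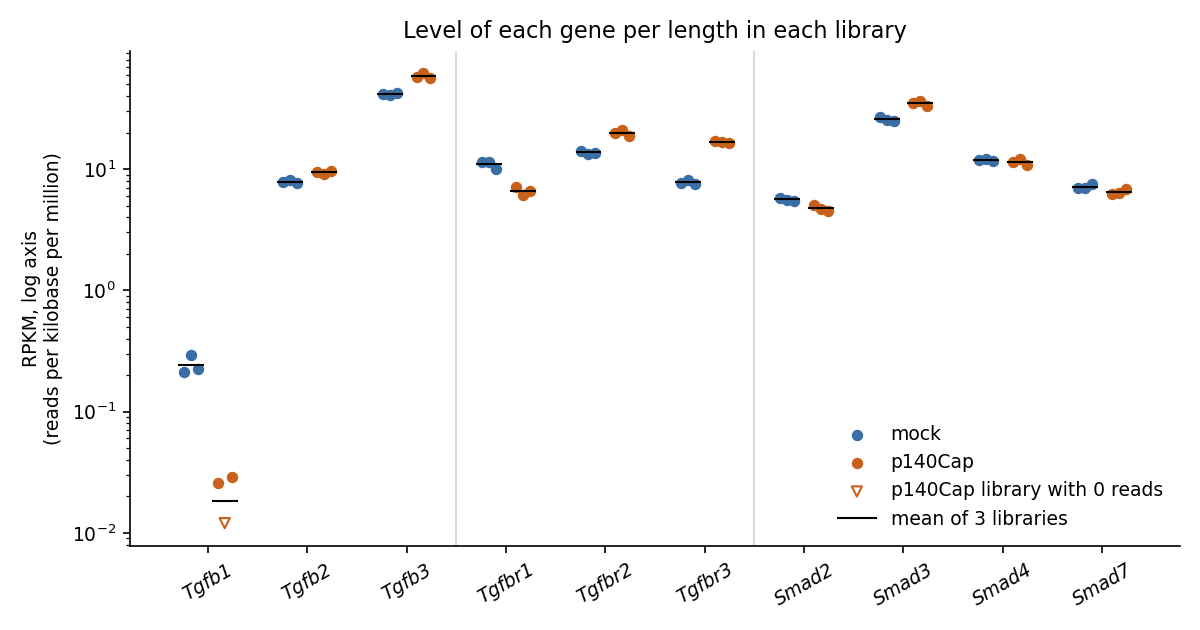
RPKM of the 10 genes (log axis) in each mock and p140Cap library, with a line at the mean of 3 libraries and an open triangle, placed at the foot of the axis, for the p140Cap library with 0 Tgfb1 reads. Tgfb3 is highest and Tgfb1 lowest in both groups, and Tgfbr1 lies above Tgfbr3 in mock and below it in p140Cap cells.

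Around the members, 109 other genes of the pathway were read from 7 lists, of which 85 passed the filter on low counts. Among those 85, 35 were higher and 23 were lower in p140Cap cells, so 68.2% were called, against 71.1% of all genes tested, and their median log2 fold change was 0.08. The genes named for each list are its called genes with the largest changes in either direction.

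Of 17 genes that hold ligand latent or release it, 12 were tested, 6 were higher, 0 were lower (edgeR), and the median log2 fold change was 0.15. At an unadjusted p under 0.05, and with DESeq2 or limma-voom, 0 were lower as well. The list had 50% of its tested genes called, against 71.1% of all genes (35.2% higher and 35.9% lower). Itgav, the αv integrin subunit that activates latent TGF-β, rose from 160 to 222 CPM (log2 fold change 0.47, SE 0.05), and Thbs1, which encodes thrombospondin-1, an activator of latent TGF-β, rose from 372 to 512 CPM (0.46, SE 0.07). Ltbp4, a latent TGF-β binding protein of the matrix, had a log2 fold change of 0.40 (SE 0.11). The list held no gene called with a change of at least 0.5 log2 units. Lrrc32 and Nrros, which tether latent ligand on lymphoid and myeloid cells, had no reads.

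Of 10 genes listed as other receptors and co-receptors, 8 were tested, 2 were higher and 4 were lower. That is 75% called, against 71.1% of all genes tested (35.2% higher and 35.9% lower). Nrp1, which encodes the co-receptor neuropilin-1, had 459, 195 and 189 reads in mock and 15, 9 and 6 reads in p140Cap cells (log2 fold change -3.01, SE 0.22, adjusted p = 3.00e-09, edgeR). Cd109, a co-receptor that dampens TGF-β signaling, fell from 1.40 to 0.503 CPM (log2 fold change -1.48, SE 0.29). Cd109 passed the filter on low counts only with its mock libraries, so a difference was a condition of its being tested. Bambi, a pseudoreceptor without kinase activity, fell by 0.32 on the log2 scale (SE 0.05). Acvr1b (ALK4), the activin type I receptor that also signals through SMAD2 and SMAD3, went the other way from Tgfbr1, at 42.2, 42.5 and 44.2 CPM in mock and 84.0, 89.1 and 77.9 CPM in p140Cap cells (log2 fold change 0.96, SE 0.06, adjusted p = 2.24e-10, edgeR). Itfg1 was in the list but is not an established TGF-β receptor or co-receptor. Its small increase (0.14, adjusted p = 0.0236, edgeR) lost its call without mock replicate 1 (adjusted p = 0.0848), mock replicate 3 (0.0644), p140Cap replicate 1 (0.15) or p140Cap replicate 3 (0.0991). That leaves 1 gene called higher in this list. Without p140Cap replicate 2, 3 genes of the list were called higher.

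Among 18 tested partners and relay genes of 19 listed, 8 were higher and 6 were lower, with a median of 0.08. The share called was 77.8%, against 71.1% of all genes tested (35.2% higher and 35.9% lower). Dab2, an endocytic adaptor of TGF-β receptors, had 35.3, 36.5 and 34.7 CPM in mock and 76.9, 72.7 and 69.5 CPM in p140Cap cells (log2 fold change 1.04, SE 0.05, adjusted p = 6.17e-11, edgeR). Runx2, a transcription factor that binds Smads, and the coactivator gene Ncoa3 rose by 0.46 (SE 0.10) and 0.38 (SE 0.06). Strap, whose product binds both receptors and dampens signaling together with SMAD7, was at 171, 182 and 172 CPM in mock and 87.3, 83.4 and 86.4 CPM in p140Cap cells (log2 fold change -1.03, SE 0.05, adjusted p = 2.15e-11, edgeR). Fkbp1a, encoding the FKBP12 protein that holds the type I receptor inactive, fell by 0.55 (SE 0.05), and Runx1 fell by 0.39 (SE 0.06).

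All 18 listed inhibitors and turnover genes were tested, 6 were higher and 4 were lower, and the median was 0.06. In this list 55.6% were called, against 71.1% of all genes tested (35.2% higher and 35.9% lower). Nedd4l, a ubiquitin ligase for activated SMAD2 and SMAD3, rose from 75.2 to 119 CPM (log2 fold change 0.66, SE 0.05). The phosphatase gene Ctdsp2 rose by 0.42 (SE 0.05) and Ldlrad4, a membrane inhibitor of SMAD activation, by 0.39 (SE 0.09). The deubiquitinase genes Usp11 and Usp15, whose products act on TGFBR1 and on Smads, were lower, at 10.4 against 4.36 CPM (log2 fold change -1.25, SE 0.12) and at 88.0 against 56.5 CPM (-0.64, SE 0.05). Pmepa1, an inhibitor that is also a target of the pathway, fell from 428 to 341 CPM (-0.33, SE 0.05).

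Of 30 genes that TGF-β is known to induce, 22 were tested, 9 were higher and 5 were lower, with a median of 0.10. The share called was 63.6%, against 71.1% of all genes tested (35.2% higher and 35.9% lower). Fn1 (fibronectin) had 483, 195 and 173 reads in mock and 1, 2 and 2 reads in p140Cap cells. By these reads Fn1 was 49.4 times higher in mock cells, with exact 95% bounds of 21.1 and 153 that cover counting error only. Ctgf, a matricellular gene now named Ccn2, had 148, 84 and 69 reads in mock and 6, 6 and 4 reads in p140Cap cells, which is 5.47 times higher in mock cells, with exact 95% bounds of 3.31 and 9.69, again for counting error only. Fn1 and Ctgf passed the filter on low counts through the mock libraries alone, so a difference was a condition of their being tested. Pthlh, which encodes parathyroid hormone-related protein, fell by 0.87 on the log2 scale (SE 0.10). On the other side, Col1a1 rose from 2.97 to 5.02 CPM (log2 fold change 0.80, SE 0.16), the cytokine gene Lif from 52.7 to 91.2 CPM (0.79, SE 0.06) and the cell cycle inhibitor gene Cdkn1a from 46.6 to 75.6 CPM (0.70, SE 0.06). Col1a1 is also one of the fibroblast markers, and of the others Pdgfra alone was tested and was not called.

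Of the 7 genes listed as repressed by TGF-β in epithelial cells, all were tested, 4 were lower and 2 were higher, and the median was -0.64. That is 85.7% called, against 71.1% of all genes tested (35.2% higher and 35.9% lower, median 0.00). Id1, an inhibitor of differentiation, was at 55.5, 49.8 and 54.1 CPM in mock and 23.6, 23.4 and 23.0 CPM in p140Cap cells (log2 fold change -1.19, SE 0.06, adjusted p = 7.10e-11, edgeR). Myc fell by 0.73 (SE 0.06) and Cdc25a, a phosphatase that drives the cell cycle, by 0.64 (SE 0.05). The fourth lower gene, Id3, was picked out once its values were known, and its mean log2 CPM was only -0.14. Its fitted fall of 1.62 (SE 0.33) rests on 84, 37 and 30 mock reads against 5, 4 and 5 p140Cap reads. Only the mock libraries carried Id3 past the filter on low counts, so a difference was a condition of its being tested. With at least 10 reads required in every library, 3 genes of the list were lower. Tert, the telomerase subunit, rose by 0.75 (SE 0.07). Cdh1 (E-cadherin) was higher by 0.11 log2 units (adjusted p = 0.0471, edgeR), a call that was lost with any 1 library left out, with adjusted p from 0.0531 to 0.186, which leaves 1 gene called higher in this list.

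The activin branch shares SMAD2 and SMAD3 with TGF-β. Of 13 listed ligands and antagonists, 5 were tested, 3 were higher and 1 was lower. In this list 80% were called, against 71.1% of all genes tested (35.2% higher and 35.9% lower). Inhbb, the activin βB subunit, was at 227, 209 and 249 CPM in mock and 295, 337 and 298 CPM in p140Cap cells (log2 fold change 0.44, SE 0.06). Inha, the inhibin α subunit that turns activins into antagonists, was at 1.03, 1.11 and 1.2 CPM in mock and 5.27, 6.06 and 6.98 CPM in p140Cap cells (log2 fold change 2.47, SE 0.16, adjusted p = 6.16e-10, edgeR). The activin inhibitor gene Fstl3 rose by 1.34 (SE 0.19), and the ligand gene Gdf11 fell by 2.31 (SE 0.27), from 426 reads over the mock libraries to 25 over the p140Cap libraries. Gdf11 passed the filter on low counts through the mock libraries alone, so a difference was a condition of its being tested. With any 1 p140Cap library left out, 2 genes of this list were called lower.

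**Figure D4:**
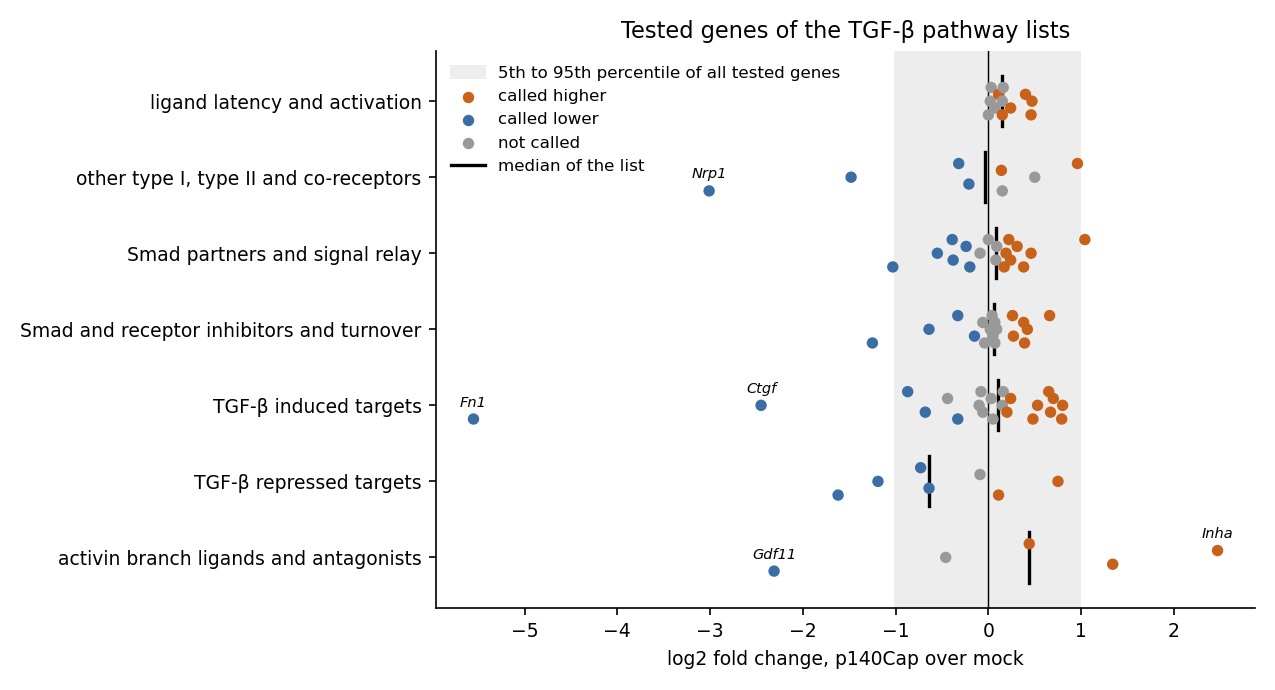
Log2 fold change between p140Cap and mock cells (x axis) of each tested gene in the 7 pathway lists, 1 point per gene, colored by call, with the median of the list as a black bar and the 5th to 95th percentile of all tested genes in grey. Most points lie within the grey band from -1.01 to 0.99, and Fn1, Nrp1, Ctgf, Gdf11 and Inha lie far outside it.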

How the data were processed

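The authors deposited counts, the whole number of reads per gene and library, for 21960 genes without normalization. Per the submitters' processing notes STAR 2.5, RSEM 0.1.1 and the build mm10 were used, and the paper names docker4seq and stranded TruSeq libraries but the mouse build GRCm39; which build gave these counts is therefore not settled, and no source used here gives the annotation release or the strand setting. Column names identified the samples.

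Genes were tested with edgeR 4.0.16 under R 4.3.3 (TMM factors, filterByExpr, quasi-likelihood F test on condition alone, Benjamini-Hochberg adjustment over 11800 genes, threshold 0.05). Each SE was taken as the size of the log2 fold change over the root of its F statistic. RPKM used exonic bases from GENCODE (GRCm39), matched by Ensembl identifier for 98.6% of genes; positions are from RefSeq, GRCm38.p6. The library totals limit precision, and intervals on reads are exact 95% binomial intervals. Libraries of a group differed by more than sampling noise (mean chi-square 1.75 to 10.7, where noise gives 1). On simulated data for this comparison with 200 changed genes among 11800, edgeR called 86% of changes of 0.5 log2 units and 42% of changes of 0.25. In the data themselves 71.1% of genes were called, and the adjustment is more lenient where more genes change. The simulated shares therefore do not give the power of the real test.

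Members and lists were chosen with earlier results of these data known. Named genes are the members plus, from every list, the 3 highest and the 3 lowest called genes by log2 fold change at a mean log2 CPM of at least 0. Alternatives were RLE and upper-quartile factors, DESeq2 1.42.0, limma-voom 3.58.1, no filter, at least 10 reads in every library, thinning to the smallest total, leaving out each library, a replicate block and other gene lengths. Some items are not reported here.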

Additional observations from a re-analysis of the deposited data

How the results depend on the processing

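Under the 14 alternatives, Tgfb2, Tgfb3, Tgfbr1, Tgfbr2, Tgfbr3, Smad2 and Smad3 kept their direction and call, and Smad4 stayed uncalled, between -0.08 and -0.01. Tgfb1 kept its call in the 13 that tested it, and the stricter count minimum (10 reads per library) removed it. Smad7 was called without a filter (-0.17, adjusted p = 0.0256, edgeR), with at least 10 reads in every library (-0.14, adjusted p = 0.0448, edgeR) and without p140Cap replicate 3.

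Numbers called in the lists moved as follows. With no filter, 1 other receptor or co-receptor and 1 repressed target were higher, and 2 activin branch genes were lower. With at least 10 reads in every library, 2 other receptors or co-receptors and 3 induced targets were lower, 1 repressed target was higher, and 0 activin branch genes were lower, since that filter removes Gdf11. With the replicate block, 1 other receptor or co-receptor and 1 repressed target were higher. With each library left out, higher calls were 1 to 3 among other receptors and co-receptors (3 without p140Cap replicate 2) and 1 to 1 among repressed targets. Lower calls were 1 to 2 in the activin branch, with 2 without any 1 of the p140Cap replicates. The order by level per length kept 5 members in each group with the median coding transcript, and 8 to 10 members in p140Cap cells with each library left out, with Smad7 and Tgfbr1 changing places without p140Cap replicate 1.

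Replicate numbers did not pair the libraries. Deviations of same-numbered libraries from their group means correlated at -0.0299, -0.106 and -0.0573, and the block gave 8034 called genes against 8388. No result reversed. Of the members, Tgfb1 had the fewest reads, and the p140Cap libraries could not resolve levels under 0.198 to 0.22 CPM (3 reads).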

Other observations

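Per1 and Atp6v1b2 were among the genes whose levels followed Tgfb3 most closely over the 6 libraries (Pearson's r of log2 CPM 0.9995 for each). With 2 groups that differ, such values are mostly set by the group means, and 26.4% of the other 11799 genes tested had an r over 0.9.

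Fst, which encodes the activin antagonist follistatin, had too few reads for the test and was named after its values were seen. Mock libraries held 39, 17 and 9 Fst reads, and p140Cap libraries held 1, 0 and 0. The ratio of mock to p140Cap cells was 18.9, with exact 95% bounds of 3.27 and 757 from counting error.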
